A study of Mus musculus with 7 samples.

Results

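A total of 1079 β-catenin peaks were mapped in branchial arches of wild-type mouse embryos at 10.5 days post coitum. Of these, 293 lay inside protein-coding genes and overlapped no Pygo2 peak. A peak entered this set when it shared no base with a Pygo2 peak, when its centre was more than 1 kb from every start and end coordinate of a protein-coding gene, and when that centre fell within a protein-coding gene on mm10. The 293 peaks are 27.2% of the list (95% Wilson interval 24.6 to 29.9%) and 36.4% of the 806 β-catenin peaks without Pygo2 overlap. Every interval on a share here covers counting error only. The members were thus chosen by overlap with Pygo2 and by place in the genome, so Pygo2 overlap and distance, and counts of genes that hold a member, are given as descriptions without a test. Tests were kept to length of the gene, internal starts and position along the gene. The rule does not fix these features but limits them. The members were therefore compared with other peaks that met the same position rule. The study profiled 7 chromatin libraries, namely input from BA1 and BA2, IgG from BA1, and immunoprecipitations of β-catenin and of Pygo2 from BA1 and BA2. All came from arches of wild-type embryos, about 200 arches dissected together per preparation, and the meaning of BA1 and BA2 is not stated. The β-catenin BA2 and the Pygo2 BA2 peak lists were used, each called against the IgG BA1 library, and no peak list from BA1 was used here. Each protein is therefore represented by 1 library, so no value has a replicate error, and the tests below compare sets of positions in single libraries and not embryos.

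β-catenin does not bind DNA itself. In canonical Wnt signalling it is stabilised, enters the nucleus and is held on chromatin by TCF/LEF proteins, while Bcl9 proteins link it to Pygo1 or Pygo2, whose PHD finger reads methylated histone H3. A separate pool of β-catenin joins cadherins to the actin cytoskeleton at cell contacts. The branchial arches contain neural crest mesenchyme, mesoderm, epithelia, vessels and nerves, so a peak cannot be assigned to one of these cell types, and a site in few cells cannot be told apart from weak occupancy in many.

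The peaks rested on few reads. The β-catenin library held 13672937 tags, of which 15795 (0.116%) were in peaks, a mean of 14.6 per peak against a calling minimum of 11. The deposited score was 1 for every peak and every peak was 169 bp wide, so the place in the deposited list was used to order the peaks, although the headers do not state how the list was sorted.

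Some of these peaks reached promoter windows of annotated starts inside their genes. RefSeq promoter windows, which span 250 bases before to 50 after an annotated start, were reached by 22 of the 285 members on chromosomes with such windows (7.72%, interval 5.15 to 11.4%). This share was not computed for other peaks inside genes. At 19 of them the window belonged to the gene around the peak, and at 3 to a noncoding gene only (Ube2uos in Ube2u, Zfp335os in Zfp335 and Gm32834 in S1pr3). The 6 earliest-listed members with at least 80 bases before a start of their own host gene are shown, because here the bases under the peak can be read. Only bases covered by the peak and lying before the start are printed, 5′ to 3′ on the strand of the gene, from RefSeq on GRCm38.p6, the assembly of mm10. Capitals mark matches on either strand to the TCF/LEF core (CTTTGAA, along with CTTTGAT, with CTTTGTA and with CTTTGTT), to the GC box GGGCGG and to the CCAAT box.
Gtf2i (chr5:134314853-134315010, - strand): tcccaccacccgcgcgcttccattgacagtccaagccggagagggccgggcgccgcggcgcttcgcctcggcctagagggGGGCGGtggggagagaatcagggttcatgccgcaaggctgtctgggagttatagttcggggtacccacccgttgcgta
Ppp1r10 (chr17:35919022-35919119, + strand): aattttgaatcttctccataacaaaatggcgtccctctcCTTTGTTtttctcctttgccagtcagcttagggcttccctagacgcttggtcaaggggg
Tcf12 (chr9:71896097-71896224, - strand): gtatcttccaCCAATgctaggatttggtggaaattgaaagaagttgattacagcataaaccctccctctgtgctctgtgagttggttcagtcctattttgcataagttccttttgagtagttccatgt
Scn2a (chr2:65668561-65668685, + strand): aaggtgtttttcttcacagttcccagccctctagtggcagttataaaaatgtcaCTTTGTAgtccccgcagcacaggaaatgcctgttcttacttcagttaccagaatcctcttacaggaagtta
Cep70 (chr9:99243091-99243174, + strand): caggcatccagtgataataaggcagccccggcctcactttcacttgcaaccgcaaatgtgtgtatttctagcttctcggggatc
Prpsap1 (chr11:116490347-116490506, - strand): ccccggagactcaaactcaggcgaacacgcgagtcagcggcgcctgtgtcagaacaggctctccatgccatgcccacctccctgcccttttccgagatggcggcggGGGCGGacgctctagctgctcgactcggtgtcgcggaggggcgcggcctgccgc

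Gtf2i encodes a general transcription factor, and its stretch of 158 bases had a GC content of 67.1%, 16 CpG dinucleotides and 1 GC box. Prpsap1, whose product associates with phosphoribosyl pyrophosphate synthetase, had a similar stretch with 69.4% GC, 18 CpG dinucleotides and 1 GC box. The stretch at Tcf12, a basic helix-loop-helix factor gene unrelated to the TCF/LEF family, held no CpG, 40.6% GC and 1 CCAAT box. TCF/LEF cores appeared once at Ppp1r10, which encodes a nuclear regulator of protein phosphatase 1, and once at Scn2a, a neuronal sodium channel gene. Cep70, a centrosomal protein gene, had none of the 3 motifs in its 84 bases. The printed stretches thus differed in base composition, from CpG-rich to free of CpG. Most of these members were close to a Pygo2 peak without overlapping it. The nearest Pygo2 centre was 174 bp away at Prpsap1, 206 bp at Gtf2i, 264 bp at Ppp1r10 and 388 bp at Cep70. It was 817 bp away at Tcf12 and 1274 kb at Scn2a.

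Over whole windows of 300 bases, the 23 windows that members reached had a median GC content of 58.3% and a median of 17.0 CpG dinucleotides, against 52.7% and 7 in all 32851 windows. A TCF/LEF core was present in 5 of the 23 (21.7%) and in 16.9% of all windows. GC boxes were found in 12 (52.2%) against 35.7%, CCAAT boxes in 8 (34.8%) against 37.4%, the ETS core CCGGAAG in 4 (17.4%) against 8.86%, the sequence CAGCTG in 3 (13.0%) against 16.3%, and the cyclic AMP response element TGACGTCA in 1 (4.35%) against 1.79%. These shares are given without a test, and a match is not evidence of binding.

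A wider window of 1 kb from the peak centre gave an annotated RefSeq start for 50 of 285 members (17.5%). The start belonged to the host gene in 43 cases and to another gene in 7. Among the host genes were Prrx1, a homeobox gene of arch and limb mesenchyme (start 127 bp from the peak centre), Pim1, a kinase gene (531 bp), Set, a histone chaperone gene (573 bp), Sgk1, a serum-induced kinase gene (300 bp), and Arid5b, a DNA-binding protein gene (615 bp). Shared β-catenin peaks inside genes had a start within 1 kb in 22 of 68 cases (32.4%), an odds ratio of 0.446 for the members (interval 0.238 to 0.851). That difference did not pass after adjustment over 6 tests (Fisher's exact test, two-sided, p = 0.0112, Benjamini-Hochberg adjusted p = 0.0671). It passed with a start window of 2 kb (odds ratio 0.432, Fisher's exact test, adjusted p = 0.0217) and with a gene end window of 2 kb (0.331, adjusted p = 0.0123), and in the first 50% of the list the odds ratio was 0.978 (adjusted p from 0.0123 to 1.00 over the alternatives). Pygo2-only peaks inside genes had a start within 1 kb in 437 of 2112 cases (20.7%), with an odds ratio of 0.816 (interval 0.578 to 1.13, Fisher's exact test, adjusted p = 0.345).

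Members were frequent late in the list. They made up 19.6% of the first 107 and 43.5% of the last 108 peaks of the β-catenin list, and shared peaks 43.9% and 15.7% of the same ones. The median list position was 59.4% for members, 51.0% for β-catenin-only peaks at gene ends, 55.6% for intergenic ones and 25.3% for shared peaks inside genes. Within the members, starts within 1 kb became rarer along the list, from 23 of 96 (24.0%, interval 16.5 to 33.4%) among the 98 first-listed, to 19 of 96 (19.8%) and then 8 of 93 (8.60%, interval 4.42 to 16.1%). Over the same groups, hosts of at least 100 kb went from 48.0% to 51.0% and 56.7%.

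**Figure D1:**
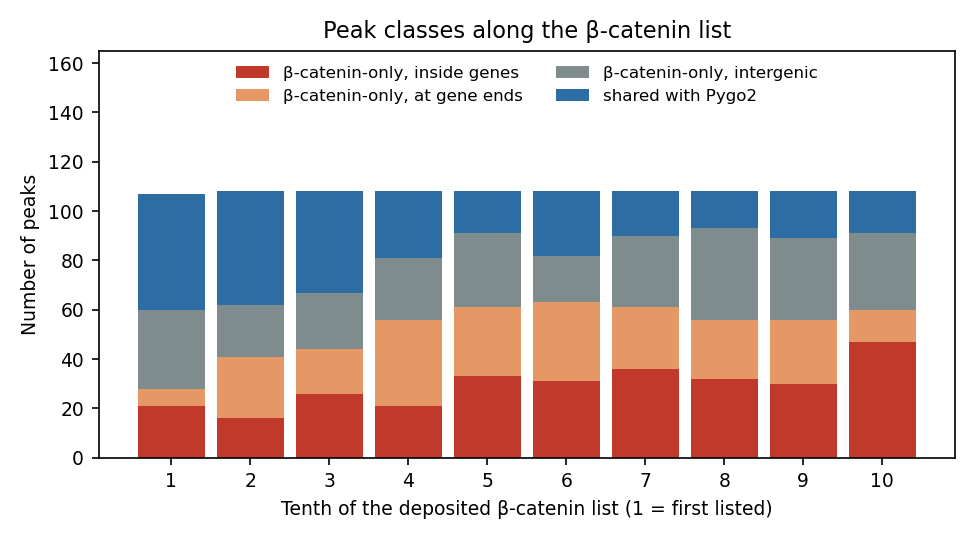
Number of peaks (vertical axis) in 10 successive parts of the deposited β-catenin list (horizontal axis, first-listed at the left), split into β-catenin-only peaks inside genes, at gene ends and in intergenic sequence, and peaks shared with Pygo2. Peaks inside genes number 21 in the first part and 47 in the last, while shared peaks number 47 and 17.

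No start was found within 1 kb of the first-listed members. The 15 first-listed ones fell in 14 genes, namely Lama2 (a laminin chain), Diaph2 (a formin), AW554918, Kynu (kynureninase), Sepsecs (which makes selenocysteinyl-tRNA), Dgki (a diacylglycerol kinase), Gabra2 (a GABA receptor subunit), Ano2 (a chloride channel), Rin2 (a Rab5 exchange factor), Sfi1 (a centrosomal protein, with 2 peaks), Bzw2, Polq (a DNA polymerase), Kcnq1 (a potassium channel) and Grm7 (a glutamate receptor). None of the 14 with RefSeq windows on their chromosome had a start within 1 kb. Kynu, Sepsecs, Sfi1 and Kcnq1 had no window of their own, so only starts of other genes could be found there. In 10 of the 15, the gene was at least 100 kb long. The nearest Pygo2 peak was 8.97 kb away at Dgki and farther at the others, with a median of 122 kb. The peak in Lama2 was listed at place 16 of 1079 (chr10:27597323-27597491), 19.8 kb after the gene start, and the peaks in Sfi1 at places 48 and 53 (chr11:3167565-3167733 and chr11:3147488-3147656).

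Distance to Pygo2 varied from near contact to megabases. The median distance from a member to the nearest Pygo2 peak centre was 46.7 kb (quartiles 9.60 and 164 kb), against 6.38 kb for β-catenin-only peaks at gene ends and 84.9 kb for intergenic ones. A Pygo2 centre lay within 500 bp of 22 members (7.51%, interval 5.01 to 11.1%), within 1 kb of 30 (10.2%), within 10 kb of 75 (25.6%, interval 20.9 to 30.9%) and within 50 kb of 148 (50.5%). At gene ends the share within 1 kb was 41.6%, and in intergenic sequence 13.9%. At the other extreme, 13 members had no Pygo2 peak within 1 Mb, and the peak in Pcdh7, a protocadherin gene, was 4773 kb from one. Since Pygo2 overlap chose the members, these shares are not tested.

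**Figure D2:**
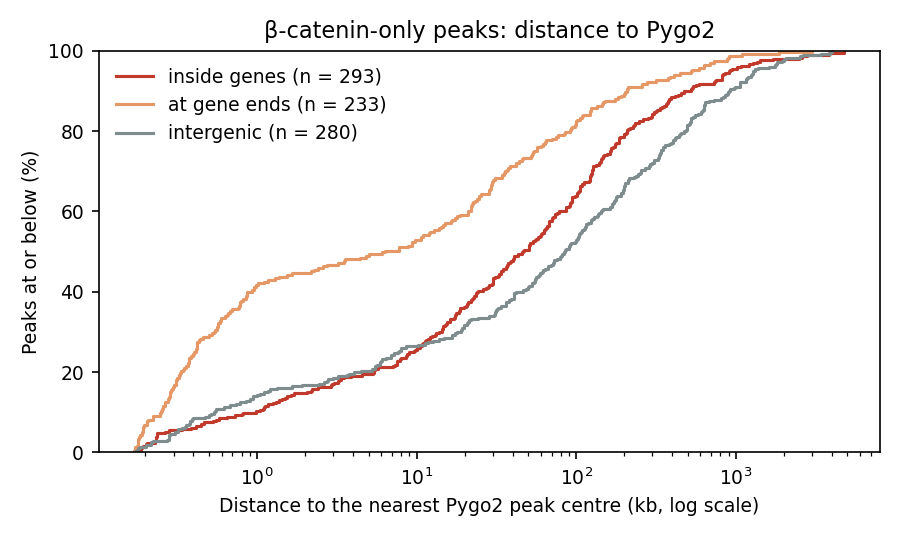
Cumulative share of β-catenin-only peaks (vertical axis, %) by distance to the nearest Pygo2 peak centre (horizontal axis, kb, log scale), for 293 peaks inside genes, 233 at gene ends and 280 in intergenic sequence. The curve for gene ends is at 41.6% by 1 kb, the curve for peaks inside genes at 10.2%.

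Members closest to Pygo2 narrowly missed the overlap. Among the smallest centre distances were 174 bp in Frmd4a (a FERM domain scaffold gene) and in Prpsap1, 188 bp in Arid5b, 191 bp in Runx1t1 (a corepressor gene), 194 bp in Dcakd, 202 bp in Hdac9 (a histone deacetylase gene), 206 bp in Gtf2i, 229 bp in Ephb2 and 233 bp in Pcgf2 (a Polycomb group gene). Just outside the rule, overlapping peaks had centre distances of up to 163 bp, at Kdm7a, with 148 bp at Zmiz1, 143 bp at Stx18 and 138 bp at Jund. For the 1 kb limit to gene ends, the members nearest to it were in Tnfsf10 (1022 bp), Kcnmb3 (1027 bp), Zfp946 (1034 bp), Rnf123 and Klf16 (1062 bp each), and the nearest excluded peaks inside genes were at Meis1 (990 bp), Phlda1 (989 bp), Pus3 and Nat14 (985 bp each) and Rpl29 (979 bp). Of the members within 500 bp of a Pygo2 centre, 10 of 21 with RefSeq windows on their chromosome also had an annotated start within 1 kb.

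The members occupied 282 host genes, 1.29% of the 21887 protein-coding genes. Where genes overlapped, which was the case for 3 members, the longest was taken as the host. Hosts were long, with a median length of 102 kb against 17.2 kb for all protein-coding genes, and the rule itself favours long genes, which have more bases away from their ends. The share of genes that held a member rose from 0.354% of genes under 20 kb to 0.883% at 20 to 50 kb, 2.03% at 50 to 100 kb, 4.86% at 100 to 200 kb, 6.03% at 200 to 500 kb and 12.3% at 500 kb or more. Of the 2429 genes of 100 kb or longer 5.93% held a member, and of the 19458 shorter genes 0.709%. Per 100 Mb of gene interior, members numbered 62.9 in genes under 20 kb, 30.3 at 20 to 50 kb, 30.2 at 50 to 100 kb, 38.0 at 100 to 200 kb, 21.3 at 200 to 500 kb and 15.1 at 500 kb or more. Pygo2-only peaks inside genes went from 480 per 100 Mb in genes under 20 kb to 241 at 100 to 200 kb and 167 at 200 to 500 kb.

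Against other peaks under the same position rule, the length of the host did not pass the test. Hosts of at least 100 kb held 152 of 293 members (51.9%), 31 of 70 shared β-catenin peaks (44.3%) and 1008 of 2166 Pygo2-only peaks (46.5%). The odds ratio was 1.36 against shared peaks (interval 0.777 to 2.38, two-sided Fisher's exact test, adjusted p = 0.345) and 1.24 against Pygo2-only peaks (interval 0.963 to 1.59, adjusted p = 0.185). The second comparison passed when each gene was counted once (odds ratio 1.64, Fisher's exact test, adjusted p = 0.00104) and in the first 50% of each list (2.02, adjusted p = 0.00425), with adjusted p-values from 0.00104 to 0.563 over the alternatives.

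**Figure D3:**
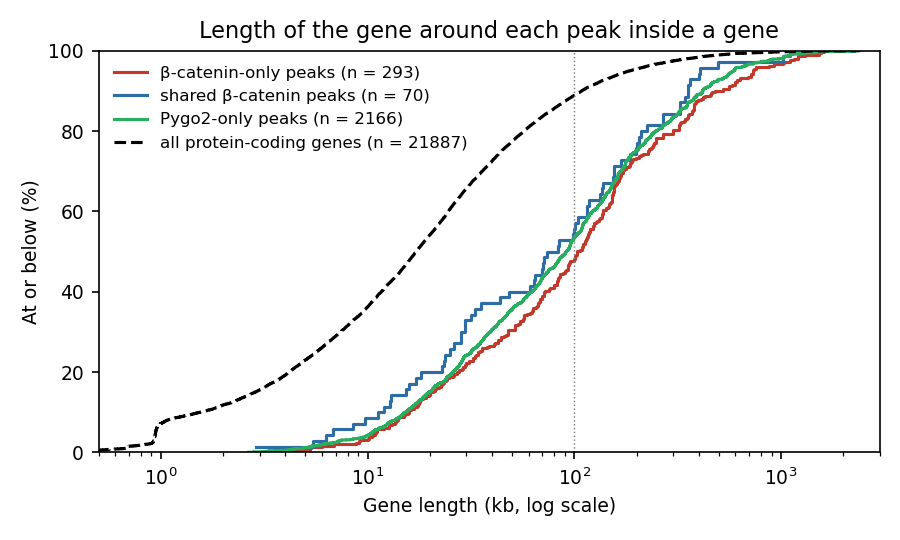
Cumulative share (vertical axis, %) by gene length (horizontal axis, kb, log scale) for the genes around 293 β-catenin-only, 70 shared β-catenin and 2166 Pygo2-only peaks inside genes, and for all 21887 protein-coding genes (dashed). The dotted line marks 100 kb, and the 3 peak classes lie to the right of all genes, with medians of 104, 78.6 and 91.6 kb against 17.2 kb.

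Along the gene, members were most frequent towards the start. The strand of the host was known for 245 members, and their median position was 37.8% of the way from the start, a median of 27.4 kb. The first 25% of the gene held 86 (35.1%, interval 29.4 to 41.3%), followed by 61, 51 and 47 in the next parts of equal length (24.9%, 20.8% and 19.2%). Within 5 kb of the start lay 48 members (19.6%) and within 10 kb 74 (30.2%). The first 25% held 27 of 55 shared β-catenin peaks (49.1%) and 577 of 1742 Pygo2-only peaks (33.1%), and neither difference from the members passed (odds ratios 0.562, interval 0.298 to 1.06, and 1.09, interval 0.814 to 1.46, two-sided Fisher's exact test, adjusted p = 0.185 and 0.563). The extremes were Zfp423, a zinc finger transcription factor gene, 1.47 kb into 300 kb (0.489%), and Grm7, 919 kb into 922 kb (99.7%).

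**Figure D4:**
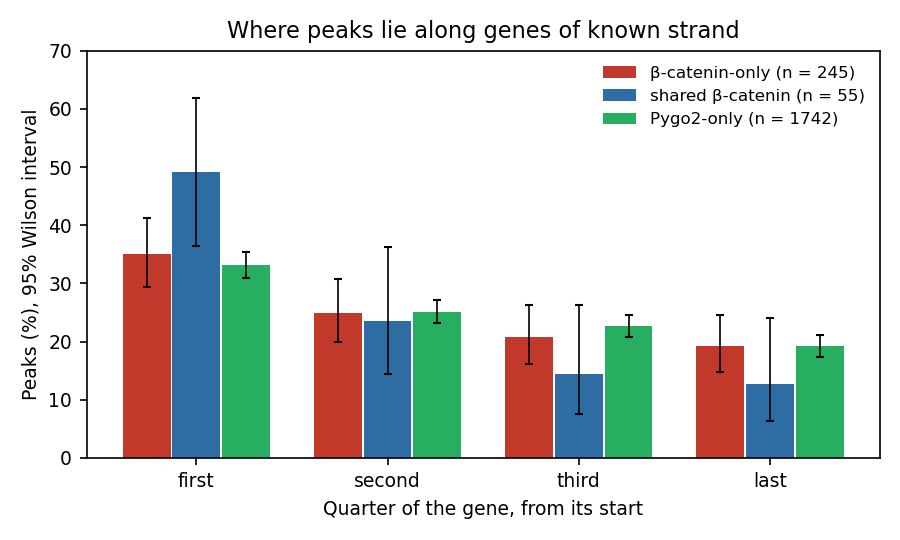
Share of peaks (vertical axis, %, bars with 95% Wilson intervals) in 4 equal parts of the gene from its start (horizontal axis), for 245 β-catenin-only, 55 shared β-catenin and 1742 Pygo2-only peaks inside genes of known strand. In each class the part next to the start holds the highest share, 35.1%, 49.1% and 33.1%.

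Many hosts carried Pygo2 elsewhere. A Pygo2 peak lay in the gene or within 1 kb of it at 142 of the 282 hosts (50.4%), against 22.9% of all protein-coding genes and 37.0% of those of 100 kb or longer. By length, the share of hosts was 40.5% under 20 kb (17.9% of all such genes), 57.1% at 100 to 200 kb (36.4%) and 53.6% at 500 kb or more (37.4%). Of 237 hosts of known strand, 48 (20.3%) had a Pygo2 peak within 1 kb of the start and 3 (1.27%) within 1 kb of the opposite end. The same shares over all genes were not computed, so they cannot be called particular to hosts. By the same count Gse1 had 15 Pygo2 peaks and Msi2, an RNA-binding protein gene, 11. The Pygo2 list is also the longer one, with 7150 peaks against 1079. Besides their members, 18 hosts (6.38%) had another β-catenin peak, shared with Pygo2 in 15 and within 1 kb of a gene end in 4.

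Pairs of members occurred in 11 genes. The closest were 0.685 kb apart in H3f3a, one of the genes for the replacement histone H3.3 (chr1:180811672-180811840 and chr1:180812357-180812525, places 168 and 491), 1.85 and 1.16 kb after its start, with a Pygo2 peak at 0.749 kb. H3f3b, the other gene for this histone, also held a member, 573 bp from an annotated start. In Src, a tyrosine kinase gene, the pair was 6.73 kb apart in the 3′ part of the gene, at 70.1% and 84.2% of its length, and each was near a Pygo2 peak, at 340 and 653 bp. Tcf12 had members at 80.6% and 86.6% of its 268 kb, 16.0 kb apart, with a shared peak between them at 83.4%, and its 4 Pygo2 peaks lay in the same part of the gene, from 73.2% to 86.4%. Vgll4, which encodes a TEAD cofactor, had members 66.2 kb apart, and Runx1t1 105 kb apart. The remaining pairs were in Msi2 (14.2 kb), Scube1 (18.3 kb), Sfi1 (20.1 kb), Col4a2 (41.9 kb), Farp1 (70.4 kb) and Hs6st3 (377 kb). Of the 11 genes, 8 had a Pygo2 peak, and Col4a2, Hs6st3 and Sfi1 had none.

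Among Wnt pathway genes, Ctnnb1 itself and 2 feedback genes held a member. The Wnt component list had 1 host among 64 genes (1.56%) and the Wnt target list 2 among 33 (6.06%), against 1.29% of all genes. The component share was thus close to that of all genes, and neither count was tested. Of genes of at least 100 kb, none of 17 components and 1 of 3 targets were hosts, against 5.93% of all such genes. In Ctnnb1, which encodes β-catenin, the peak (chr9:120940396-120940564, place 798) lay 7.08 kb after the start of the 27.1 kb gene, and the nearest Pygo2 peak was 164 kb away. In Axin2, a destruction complex scaffold and Wnt feedback gene, the member (chr11:108923063-108923231, place 599) lay 5.32 kb after the start, 2.70 kb beyond a shared peak at 2.62 kb and 2.22 kb from a Pygo2-only peak at 7.54 kb. In Znrf3, a ubiquitin ligase that removes Frizzled receptors, the member (chr11:5411650-5411818, place 996) had a Pygo2 peak 1.70 kb away, and the gene with 1 kb on either side held 5 in all. The TCF/LEF genes Tcf7, Tcf7l1, Tcf7l2 and Lef1, on the component list, held none.

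Of 55 heart development genes 5 were hosts (9.09%, against 1.29% of all genes): Prrx1, Ece1, Bmp7, Nrp1 and Notch2. Among the 10 of these genes of at least 100 kb, 3 were hosts, against 5.93% of all genes of that length, and neither count was tested. The peak in Prrx1 (chr1:163313439-163313607, place 117) lay 1.62 kb after the outer start, with a Pygo2 peak at 0.193 kb, and Nrp1, a semaphorin and VEGF co-receptor gene (chr8:128360146-128360314, place 566), had the same arrangement, with the member at 1.64 kb and Pygo2 at 0.101 kb. In Ece1, which activates endothelins (chr4:137954499-137954667, place 140), the peak was at 89.7% of the gene, between Pygo2 peaks at 67.4% and 99.1%. In Notch2, a Notch receptor gene (chr3:98112814-98112982, place 699), it was at 72.6% of the gene, with Pygo2 peaks at 21.7% and 52.9%. The peak in Bmp7, a BMP ligand gene (chr2:172933873-172934041, place 250), was 189 bp from a start of the noncoding gene Gm40010 and 86.1 kb from Pygo2. Of 48 arch patterning genes 1 (2.08%), Prrx1 again, held a member. Bmp7 and Notch2 were also the 2 hosts among 53 genes of other signalling pathways (3.77%).

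**Figure D5:**
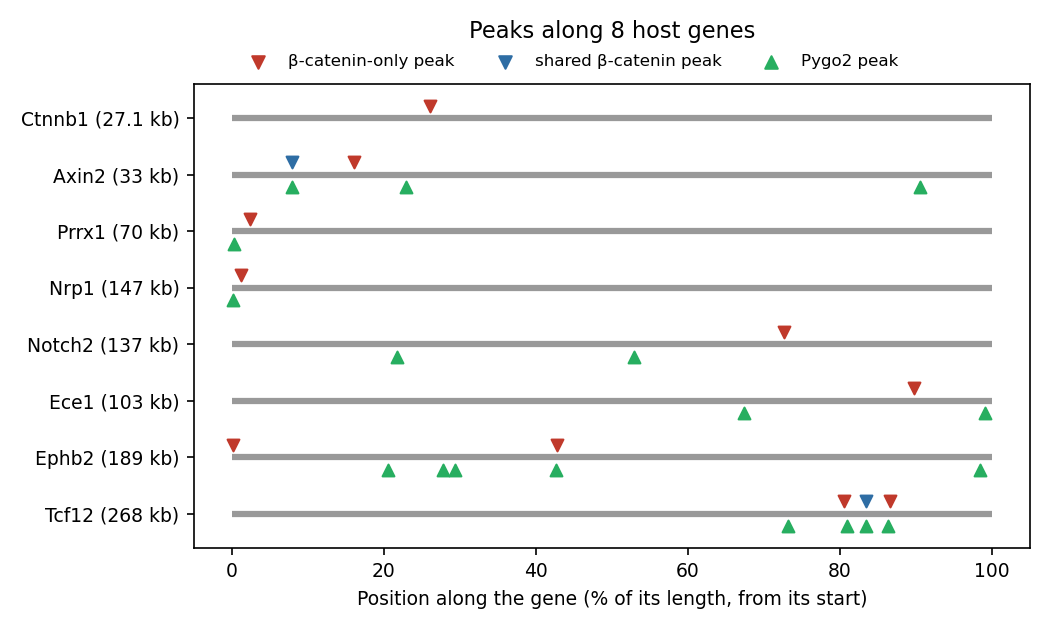
Peaks along 8 host genes, placed by their position in % of the gene's length from its start (horizontal axis), with β-catenin-only peaks (red) and shared β-catenin peaks (blue) above each gene and Pygo2 peaks (green) below. Ctnnb1 carries a β-catenin-only peak and no Pygo2 peak, Axin2 and Tcf12 carry both kinds of β-catenin peak, and the red mark at the start of Ephb2 is a gene-end peak outside the 293.

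Adhesion and guidance genes are long, and their counts are read with that in mind. Of 38 axon guidance genes 4 were hosts (10.5%): Nrp1, Unc5c (a netrin receptor), Ephb2 (an ephrin receptor) and Robo1 (a Slit receptor). Ephb2 (189 kb) also had a β-catenin-only peak within 1 kb of its start, one of 2 hosts of known strand with a β-catenin peak there, besides Tmpo. The median length of the list is 183 kb, and among the 31 of at least 100 kb the share was 12.9% against 5.93% of all such genes. Of 34 genes for cadherin complexes and cell junctions 3 were hosts (8.82%): Ctnnb1, Ptprf (a receptor phosphatase) and Magi1 (a junction scaffold), and among the 26 of at least 100 kb 1 was (3.85%). Chromatin regulators had 2 hosts among 48 (4.17%, and 4.55% of the 22 of at least 100 kb), Kdm2a and Hdac9. Calcium channel genes had 3 hosts among 26 (11.5%: Cacnb4, Cacna2d4 and Cacna1c), all 3 among the 13 of at least 100 kb (23.1%). The peak in Cacna2d4 also lay in the overlapping gene Lrtm2, 254 bp from an annotated start of Lrtm2. Glutamate receptor genes had 2 of 27 (Grm7 and Grin2a, 11.1% of the 18 of at least 100 kb), collagens 2 of 44 (Col16a1 and Col4a2, 3.85% of the 26 that long), protocadherins 2 of 69 (Pcdh7 and Pcdh15, 6.67% of the 30 that long), forkhead genes 2 of 44 (Foxn3 and Foxp1, both among the 3 that long) and potassium channel genes 3 of 93 (Kcnq1, Kcnmb3 and Kcnma1, 8.70% of the 23 that long). Solute carriers had 7 hosts of 389 (1.80%) and Zfp zinc finger genes 7 of 397 (1.76%). No member lay in the 39 Hox genes, whose median length is 3.74 kb, or in the Sox, T-box, olfactory receptor, semaphorin and plexin genes. Nuclear receptor genes with an Nr symbol held none among 23, and Rora, a nuclear receptor gene of 735 kb outside that symbol family and named after its value was seen, held 1 member (chr9:69339719-69339887, place 989).

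Lists of genes that mark single cell types had 1 host or none each, and 1.29% of all genes were hosts. The neural crest list had 1 host among 28 (3.57%), Twist2, a basic helix-loop-helix gene whose peak lay at 93.1% of the gene (chr1:91844760-91844928). The endothelial list had 1 among 22 (4.55%: Erg, an ETS factor gene) and the neuronal list 1 among 24 (4.17%: Rbfox1, a splicing factor gene of 1528 kb). Lists for epithelium (27 genes), blood (20), arch muscle (17) and liver (21) had none. In all, 18 of 493 listed genes were hosts (3.65%), and 11 of the 146 of at least 100 kb (7.53%, against 5.93% of all such genes). Of these 18, 12 also had a Pygo2 peak, and Axin2 and Robo1 a shared β-catenin peak.

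Members were spread over 20 chromosomes. They were 16.4% of the β-catenin peaks of chromosome 7 and 35.9% of those of chromosome 16, the lowest and highest shares. Another β-catenin peak lay within 100 kb of 64 members (21.8%) and within 10 kb of 13 (4.44%), and the median distance was 478 kb. Noncoding genes overlapped 19 members, and 18 of these were overlaps with a lncRNA gene.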

How the data were processed

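Chromatin from branchial arches was cross-linked, sheared and precipitated with antibodies against β-catenin or Pygo2 or with IgG, per the labels' protocols. The authors called peaks with HOMER findPeaks in factor style from 1 library per list against IgG BA1, per the file headers, at a false discovery rate of 0.001, at least 2-fold over IgG and over the surrounding 10000 bp. Bowtie, Bowtie2 and mm10 are named in the submitters' processing notes, with roles and versions not given in the sources used here. The deposited score is 1 for every peak. Other columns hold coordinates, given 1-based here.

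Peaks sharing at least 1 bp were called shared. Gene coordinates were those of RefSeq on GRCm38.p6 (21887 protein-coding genes with a chromosome other than the mitochondrial one). Strand and internal starts came from 32851 RefSeq promoter windows, which gave strand for 237 of 282 hosts and none for 8 members of 1 chromosome. Hosts without strand had no window of their own, so no start of theirs could be found near their 48 members. Of 17492 protein-coding genes with a window, 10583 had a window whose start equals the gene boundary. An internal start is thus not always an alternative to a listed outer one. Of 494 listed symbols, 493 matched. No genome sequence or exons were used, so the planned motif and exon tests were replaced by promoter windows and distances to starts, a choice made after the data were seen. Fisher's exact tests were adjusted over 6 comparisons by Benjamini-Hochberg. They treat peaks as independent, although peaks in 1 gene share their host. Named genes were the hosts of the 15 first-listed members, hosts of pairs, hosts on the lists, family hosts and members at the thresholds. Those with an internal start were picked as examples. Some items under this rule are not reported here. The members and lists were chosen with earlier results of these data known. Scripts were tested on simulated data and used Python 3.11.15, NumPy 2.4.6, pandas 2.3.3, SciPy 1.17.1 and Matplotlib 3.10.9.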

Additional observations from a re-analysis of the deposited data

How the results depend on the processing

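The number of members was 293 and went from 213 to 333 when the gene end window was 5 kb, 2 kb or 500 bp, when centres within 500 bp or an overlap of at least 50% of the peak counted as shared, or when all genes of the table were used. In the first 50% of the list it was 117, and listed hosts numbered 5 in place of 18. A shorter list holds fewer of both. Members were also less frequent early in the list (19.6% of the first 107 peaks, 43.5% of the last 108). When centres within 500 bp counted as shared, 19.6% of members had a Pygo2 centre within 10 kb, since the nearest were then removed. Odds ratios kept their direction under every alternative run, but not always their size. The odds ratio for starts within 1 kb against shared peaks was 0.446 over the full list. In its first 50% it was 0.978, so that difference was not seen there. Host length against Pygo2-only peaks passed in the first 50% of the lists (odds ratio 2.02) and with each gene counted once (1.64), and starts within 1 kb against shared peaks passed with a start window of 2 kb (0.432) and a gene end window of 2 kb (0.331); the cause was not tested. Alternatives for starts and for position along the gene were chosen after seeing the data. The motif window and exon alternatives were not run. No paired analysis was possible because each protein is represented by 1 library, which also leaves no library to leave out.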
